A study of Mus musculus with 10 samples.

Results

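The proteins of the cytosolic ribosome were followed at the mRNA level in mouse peritoneal macrophages. Members were the rows of the count table whose Ensembl identifier maps, in GENCODE M21, to a protein-coding gene with a symbol made of Rpl or Rps and digits, or to Rplp0, Rplp1, Rplp2 or Rpsa. Rps6k kinases (10 rows) and symbols with "-ps" (17 rows) were left out. This gave 86 of 22165 identifiers, 52 with symbols of the large subunit and 33 with symbols of the small subunit. Rpl7l1, whose product acts in assembly of the large subunit, is among the 52 by its symbol. The remaining member, Rps19bp1, is a protein that binds S19 and is not a ribosomal subunit, although its symbol meets the rule.

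The ribosome is built from a large and a small subunit, each made of ribosomal RNA and many proteins used in nearly equal numbers, so the genes of these proteins are usually expressed together and at a high level. Most of their mRNAs start with a run of pyrimidines, the terminal oligopyrimidine tract, through which the growth regulator mTORC1 controls how strongly they are translated. Mammalian genomes also carry many processed pseudogenes of these genes, which are reverse-transcribed copies of the mRNA, and several of the genes hold small nucleolar RNAs in their introns.

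All mice carried the same floxed allele (fl/fl), which Cre deletes. The knockout mice (KO) also carried LysM-Cre, a recombinase expressed from the lysozyme locus (Lyz2) of myeloid cells, while the mice called wild type (WT) had the floxed allele without Cre, so each genotype comparison is also one of mice with and without Cre. Mice had received IL-4 complexed to an antibody against it, which activates macrophages in the alternative way, or saline (basal), and the peritoneal cells were washed out with 5 ml of PBS 36 hours later, stained for CD64, ICAM-2 and CD115 and sorted. Polyadenylated RNA was sequenced in 3 KO IL-4, 3 WT IL-4, 2 KO basal and 2 WT basal libraries. Whether replicates came from separate mice is not stated in the labels, so the p-values speak for the spread among these 10 libraries only.

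Library totals ranged from 8762403 to 15024073 counted reads. Levels are given as CPM (the count of a gene divided by the scaled library total), with totals scaled by TMM factors. Summed markers of large peritoneal macrophages, the cell type of the sort, lay between 9215 and 18146 CPM in every library with none of the 10 markers at 0 in any group. Single markers of this list still differed between groups. After IL-4, Fcgr1 (CD64) was lower in WT (log2 -1.78 ± 0.29, edgeR adjusted p = 0.00221) and in KO (log2 -1.29 ± 0.29, edgeR adjusted p = 0.0128). Icam2 was lower after IL-4 in WT (log2 -1.27 ± 0.30, edgeR adjusted p = 0.0214). Selp was higher in KO than in WT after IL-4 (log2 1.19 ± 0.19, edgeR adjusted p = 0.00727). Markers of B cells and of mast cells differed between the basal genotypes and are given with that comparison.

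Transcription start regions are shown for 6 members whose levels are followed below, as examples of promoters of highly and of weakly expressed members. Each holds 100 bases before and 15 after the start in RefSeq (GRCm38.p6), 5′ to 3′ on the strand of the gene. Capitals mark matches to 3 motifs on either strand. One is CCGGAAG, which factors of the ETS family bind. Another is the promoter element TCTCGCGA, and the last is the GC box, spelled GGGCGG. Also searched were AAGATGGC, a motif of the factor YY1, and the pyrimidine run CTCTTTCC. The E-box was searched as CACGTG. The TATA box was searched with the letters TATAAA. In Rps28 the match to TCTCGCGA on one strand overlaps the match on the other, which gives the capitals their length.
Rps3a1 (chr3:86142654-86142768, minus strand): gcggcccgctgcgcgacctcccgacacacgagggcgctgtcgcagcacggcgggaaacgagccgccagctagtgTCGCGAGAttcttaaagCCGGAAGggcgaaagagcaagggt
Rps28 (chr17:33824548-33824662, minus strand): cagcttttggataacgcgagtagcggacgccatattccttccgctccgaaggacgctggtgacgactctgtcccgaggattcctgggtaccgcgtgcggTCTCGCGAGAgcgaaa
Rps21 (chr2:180257279-180257393, plus strand): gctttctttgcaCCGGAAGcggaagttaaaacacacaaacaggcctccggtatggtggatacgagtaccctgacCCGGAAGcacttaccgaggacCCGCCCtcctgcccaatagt
Rpl13a (chr7:45128731-45128845, minus strand): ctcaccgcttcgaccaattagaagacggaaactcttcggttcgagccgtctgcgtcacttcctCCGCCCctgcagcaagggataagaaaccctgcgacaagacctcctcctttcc
Rpl7l1 (chr17:46782642-46782756, minus strand): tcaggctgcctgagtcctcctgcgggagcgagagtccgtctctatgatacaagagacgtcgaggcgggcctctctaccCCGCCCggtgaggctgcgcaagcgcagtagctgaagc
Rps9 (chr7:3703941-3704055, plus strand): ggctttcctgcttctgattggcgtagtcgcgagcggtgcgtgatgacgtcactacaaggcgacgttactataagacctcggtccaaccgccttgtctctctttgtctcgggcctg
None of the 7 motifs was found in the stretch of Rps9. Rps21, a small-subunit protein, held CCGGAAG at 2 places and a GC box, and Rps3a1 held CCGGAAG next to TCTCGCGA.

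RefSeq windows of 300 bases (250 before and 50 after the start) were found for 66 of the 86 members, 78 windows in all. TCTCGCGA stood in 15.4% of the member windows, against 0.995% of all 32851 windows. CCGGAAG stood in 34.6% of member windows, against 8.86% of all windows. The pyrimidine run CTCTTTCC stood in 16.7% of member windows, against 3.12% of all windows, and AAGATGGC in 10.3%, against 2.75% of all windows. Every motif was counted on either strand and at any place in the window. The share for CTCTTTCC is therefore not the share of mRNAs that start with a pyrimidine tract. The GC box stood in 60.3% of member windows, against 35.7% of all windows, and the E-box in 10.3%, against 7.15%. TATAAA was the one motif searched that was rarer in member windows, with 8.97%, against 13.6% of all windows. Windows of 1 gene can overlap each other, a match is a description of the letters, and no level was compared by motif.

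The members were abundant but far from equal. Of the 86, 67 had a mean of at least 100 CPM over the 10 libraries and 5 had under 10 CPM. Per kilobase of exon (all annotated exons of the gene merged), Rps29, a small-subunit protein, had the highest mean level at 3040.1 CPM per kb, and Rpl38, of the large subunit, had 1895 CPM per kb. The lowest among the 84 members tested were Rpl39l with 0.916, Rpl10 with 3 and Rpl27 with 5.62 CPM per kb. Rpl10 and Rpl27 have 8 and 7 near-identical pseudogenes, so their low levels may depend on how reads with several matches were counted. Rpl10l, a paralog known from testis, had 0 counts in every library, and Rpl3l, a paralog known from striated muscle, had 5 and 7 counts in KO IL-4 replicates 2 and 3, 5 counts in WT basal replicate 2 and 0 elsewhere. Both were too low to be tested.

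Near-identical pseudogenes bear on these levels, since a read that matches several places can be lost or split in counting. A pseudogene with at least 95% identity over at least 50% of the main transcript was found for 65 members, and Rpl21 had the most, with 55. The 15 members with at least 10 copies had a median of 58.0 CPM per kb, against 214 CPM per kb in the 21 members with no copy. The order did not hold throughout, since the 65 members with at least 1 copy had a median of 218 CPM per kb. How the authors' counting treated reads with several matches is not given in the sources used here, so levels of members with many copies are uncertain.

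**Figure D1:**
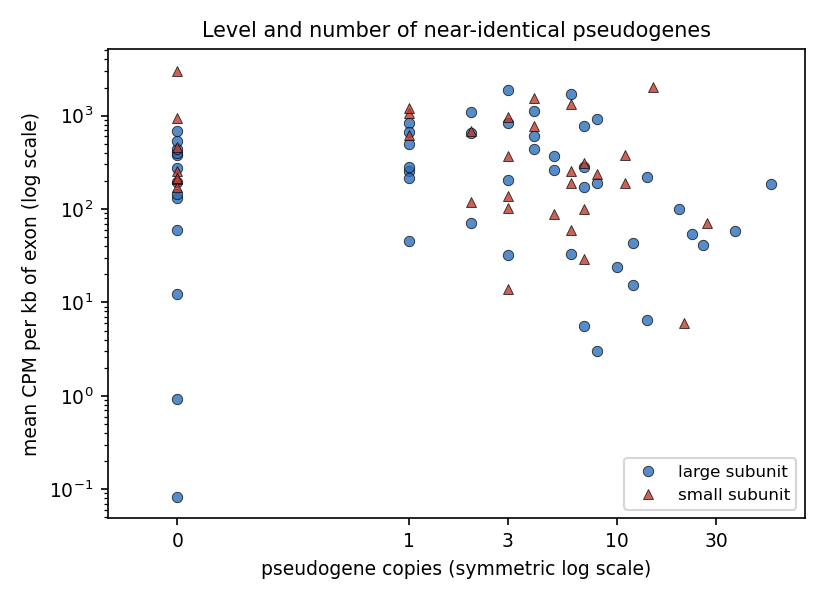
Mean level over the 10 libraries in CPM per kb of exon (vertical, log scale) against the number of near-identical pseudogenes (horizontal, symmetric log scale), 1 point per ribosomal protein gene with a level above 0, circles for the large and triangles for the small subunit. Members with at least 10 copies, at the right, had a median of 58.0 CPM per kb, against 214 in members with none, at the left.

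Paralog pairs gave unequal levels, which are compared per kb of exon. Rps27 and its retrogene Rps27rt encode nearly the same zinc-finger protein of the small subunit, and the retrogene had a mean of 371 CPM per kb, against 13.9 for Rps27. Rps27l, a further S27 paralog that p53 induces, had 171 CPM per kb. Rpl22l1 had 70.3 CPM per kb, against 283 for its paralog Rpl22, and Rpl36al had 215, against 263 for Rpl36a. Rpl7l1, whose product acts in assembly of the large subunit, had 46 CPM per kb, against 279 for Rpl7. Rpl39l had 0.916, against 378 for Rpl39. Of these genes, Rpl7 had 7 copies, Rpl36a 5, Rps27 and Rps27rt 3 each and Rpl22l1 2, so these ratios depend on how such reads were counted.

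The members together took a share of all counted reads that was lowest in KO IL-4 libraries and highest in WT basal libraries. The share was 4.55%, 4.75% and 4.26% in KO IL-4 libraries, 6.16%, 4.64% and 5.56% in WT IL-4 libraries, 5.94% and 6.41% in KO basal libraries, and 6.35% and 8.70% in WT basal libraries. The 95% Wilson interval of a library was at most 0.0156 percentage points wide to either side, which covers counting error only and is far narrower than the spread between libraries. The means were 4.52% ± 0.25 in KO IL-4 (SD, n = 3), 5.46% ± 0.77 in WT IL-4 (SD, n = 3), 6.17% ± 0.34 in KO basal (SD, n = 2) and 7.53% ± 1.67 in WT basal libraries (SD, n = 2). KO IL-4 libraries overlapped WT IL-4 libraries, in that KO replicate 2 lay above WT replicate 2, and stood apart from KO basal libraries. WT IL-4 libraries lay below both WT basal libraries, and KO basal libraries overlapped WT basal libraries. In such bulk samples, fewer cells that are rich in these mRNAs and less of the mRNA per cell cannot be told apart.

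The 2 subunits did not keep one ratio. Reads on small-subunit genes divided by reads on large-subunit genes gave 0.849, 0.956 and 0.667 in KO IL-4 libraries, 0.939, 0.879 and 0.876 in WT IL-4 libraries, 0.913 and 0.926 in KO basal libraries, and 0.970 and 1.04 in WT basal libraries. KO IL-4 replicate 3 was the lowest and WT basal replicate 2 the highest of the 10 libraries. These libraries also had many single members that departed from the rest, which are described further on.

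**Figure D2:**
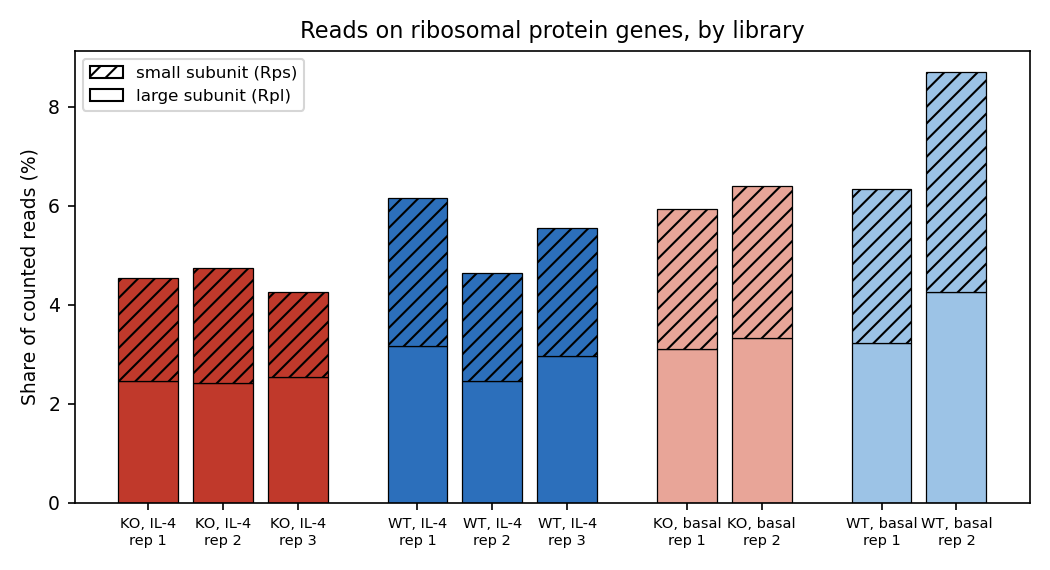
Share of counted reads on ribosomal protein genes in percent (vertical), 1 bar per library, with large-subunit genes plain and small-subunit genes hatched. KO IL-4 libraries lie between 4.26% and 4.75%, and WT basal replicate 2 is the tallest bar at 8.70%.

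After IL-4, most members had lower estimates in KO than in WT macrophages, but none passed the test. Of the 84 members tested, 71 had a log2 difference below 0, against 48.3% of all 11614 genes tested. The median over the members was -0.33, against 0.02 over all genes. At an adjusted p under 0.05 (edgeR's quasi-likelihood test, adjusted over all genes tested) 0 members were called, against 0.827% of all genes (0.353% higher and 0.474% lower in KO). At an unadjusted p under 0.05 there were 24 members, 23 of them lower in KO, against 14.4% of all genes, and DESeq2 called 1 member, Rps2. KO and WT libraries did not overlap in 20 members that were lower in KO, against 10.7% of all genes, and in 2 that were higher, against 9.57%.

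Rps2 went the other way from most members. This small-subunit protein sits near the entry of the mRNA channel. It had 154, 133 and 153 CPM in KO IL-4 libraries, against 70.9, 91 and 77.2 CPM in WT IL-4 libraries. All KO libraries lay above all WT libraries, with means of 147 ± 12 and 79.7 ± 10.3 CPM (SD, n = 3 each). The log2 difference was 0.88 ± 0.20 with an edgeR adjusted p of 0.0562, just short of the threshold, and it was past it without WT basal replicate 2 (adjusted p = 0.0498) and in DESeq2 (adjusted p = 0.00159), within a range of 0.00159 to 0.246 over all alternatives. Rps2 has 27 pseudogene copies, and the noncoding gene Snhg9 overlaps its exons on the opposite strand. The strand setting of the counting is not given in the sources used here, so reads of overlapping genes on opposite strands cannot be told apart.

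Rps14, a small-subunit protein known from the 5q- syndrome in humans, had 912, 912 and 782 CPM in KO IL-4 libraries, against 1527, 1071 and 1570.4 CPM in WT IL-4 libraries. Its groups did not overlap, all KO libraries being lower, and its log2 difference of -0.68 ± 0.22 did not pass (edgeR adjusted p = 0.162). Rps12, a beak protein of the small subunit with 21 pseudogene copies, had 8.32, 7.14 and 8.33 CPM in KO IL-4 libraries, against 12.9, 14.6 and 14.4 CPM in WT IL-4 libraries, with log2 -0.82 ± 0.28 and adjusted p = 0.203 in edgeR. Rps27 had 18.6, 15 and 20.3 CPM in KO IL-4 libraries, against 12.3, 13.4 and 13.5 CPM in WT IL-4 libraries, and was the other member with all KO libraries above all WT libraries, while its retrogene Rps27rt was the reverse, with 96.8, 98.2 and 91 CPM in KO IL-4 libraries, against 152, 121 and 136 CPM in WT IL-4 libraries. Neither difference passed in edgeR (adjusted p = 0.453 for Rps27 and 0.226 for Rps27rt), and the difference between the genes was not tested.

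Some markers of other cells also differed between the genotypes after IL-4. The 8 neutrophil markers summed to 134 to 188 CPM in KO IL-4 libraries, against 192 to 229 CPM in WT IL-4 libraries, with Camp at 0 in KO and Ly6g at 0 in WT, and 2 of the 6 tested were called lower in KO, with a median log2 difference of -1.13 over the 6. These were S100a8 (log2 -1.58 ± 0.30, edgeR adjusted p = 0.0189) and S100a9 (log2 -2.04 ± 0.41, edgeR adjusted p = 0.0354), the subunits of calprotectin. Markers of small macrophages of the peritoneum and of monocytes and dendritic cells summed to 6101 to 8527 CPM in KO IL-4 libraries, against 3605 to 4804 CPM in WT IL-4 libraries, with 1 of the 8 tested, Retnla, called higher in KO. Retnla made up most of these sums, with 6680, 7818 and 5275 CPM in KO IL-4 libraries, against 3630, 3946 and 2740 CPM in WT IL-4 libraries. Over the 8 tested the median log2 difference was -0.09, with 5 below 0, so the sums do not stand for the list as a whole. B cell markers overlapped, with 347 to 463 CPM in KO IL-4 libraries, against 372 to 437 CPM in WT IL-4 libraries, and none of the 10 was called. The part of these cells in the lower estimates of the ribosomal protein genes was not tested.

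Without IL-4, 2 members were lower in KO than in WT macrophages and none was higher. Of the 84 members tested, 72 had a log2 difference below 0, against 51.1% of all genes. The 2 members called were 2.38% of those tested, which is under the 4.14% of all genes called in this comparison (2.61% higher and 1.53% lower in KO). The median over the members was -0.24, against -0.02 over all genes, and 14 members had an unadjusted p under 0.05, all lower in KO, which is 16.7% of them, against 17.7% of all genes. The libraries did not overlap in 37 members lower in KO, against 24.5% of all genes, and in 4 higher in KO, against 23.7%.

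Rps3a1, a small-subunit protein at the exit of the mRNA channel, was one of the 2, with 1091 and 1192 CPM in KO basal libraries, against 1909.9 and 3371 CPM in WT basal libraries. Both WT libraries lay above both KO libraries, and WT replicate 2 lay far above WT replicate 1. The log2 difference was -1.21 ± 0.26 (edgeR adjusted p = 0.0154). No member was called without WT basal replicate 2 or without KO basal replicate 1, and 7 were called without WT basal replicate 1. For Rps3a1 the adjusted p was 0.19 without WT basal replicate 2, 0.131 without KO basal replicate 1 and 0.0833 without KO basal replicate 2, and at most 0.0488 in the 7 settings with all libraries. A single member was called without KO basal replicate 2 and without each of the WT IL-4 libraries. Without WT basal replicate 2 the median over the members was -0.08 and 56 of 84 lay below 0.

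Other members with low p in that comparison did not pass. Rpl22, an RNA-binding protein of the large subunit, had 822 and 595 CPM in KO basal libraries, against 998 and 2414 CPM in WT basal libraries (log2 -1.27 ± 0.40, edgeR adjusted p = 0.0966). Rpsa, the laminin-receptor protein of the small subunit, had 394 and 782 CPM in KO basal libraries, against 1097 and 1341 CPM in WT basal libraries (log2 -1.05 ± 0.33, edgeR adjusted p = 0.0914). In both genes all KO libraries were below all WT libraries. Rps20 and Rpl30 were among the 4 members with both KO libraries above both WT libraries, with log2 differences of 0.20 ± 0.22 and 0.23 ± 0.27 that did not pass (edgeR adjusted p = 0.708 and 0.734).

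Markers of other cells moved with the basal genotypes. The 10 B cell markers in the table, all called higher in KO, summed to 1214 to 1516 CPM in KO basal libraries, against 137 to 232 CPM in WT basal libraries, with none at 0 in either group. The 7 mast cell and basophil markers, of which 4 were called higher in KO, summed to 156 to 259 CPM in KO basal libraries, against 26.8 to 28.3 CPM in WT basal libraries, again with none at 0. The 11 T and NK cell markers summed to 99.5 to 100.2 CPM in KO basal libraries, against 21.7 to 40.6 CPM in WT basal libraries, where Cd8a and Klrb1c were at 0. Of the 9 tested, 1 was called higher in KO and 2 lay below 0. Eosinophil markers summed to 35.7 to 46 CPM in KO, against 6.51 to 8.02 CPM in WT. The neutrophil sum was lower in KO, at 182 to 265 CPM, against 256 to 361 CPM in WT, with 0 of 6 called and 1 estimate below 0. Among 8 small macrophage, monocyte and dendritic cell markers tested, Napsa and Cd209a were called higher in KO and 2 lay below 0. The part of the cells marked by these lists in the differences of the ribosomal protein genes was not tested. Lyz2, the locus that carries the Cre and a gene of none of these lists, had 2663 and 9671 CPM in KO basal libraries, against 23592 and 21895 CPM in WT basal libraries (log2 -1.88 ± 0.42, edgeR adjusted p = 0.0249). It was also lower after IL-4 in WT (log2 -1.81 ± 0.37, edgeR adjusted p = 0.0123). Between genotypes after IL-4 it did not pass (log2 -0.89 ± 0.34, edgeR adjusted p = 0.249).

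The 2 genotype comparisons share no library, so their members can be set side by side. Of the 20 members whose KO IL-4 libraries lay below all WT IL-4 libraries, 14 (70.0%) were also lower without overlap under basal conditions, and they made up 37.8% of the 37 such members there. Over all genes tested, the same overlap was 32.3% of the genes apart after IL-4 and 14.1% of those apart under basal conditions. Members were apart more often in each comparison, 20 and 37 of 84, against 10.7% and 24.5% of all genes. Such rates by themselves raise an overlap, so the shares of members and of all genes are not on a like footing. Among the 14 were the small-subunit genes Rps3, Rps14, Rps18, Rps21, Rps25 and Rps27l and the large-subunit genes Rpl7a, Rpl9, Rpl12, Rpl27, Rpl27a, Rpl32 and Rpl37a. Rps27l had 120.1, 92.6 and 99.5 CPM in KO IL-4 libraries, against 176, 125 and 127 CPM in WT IL-4 libraries. Under basal conditions it had 151 and 131 CPM in KO libraries, against 161 and 209.9 CPM in WT libraries, and neither difference passed in edgeR (adjusted p = 0.337 and 0.472).

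**Figure D3:**
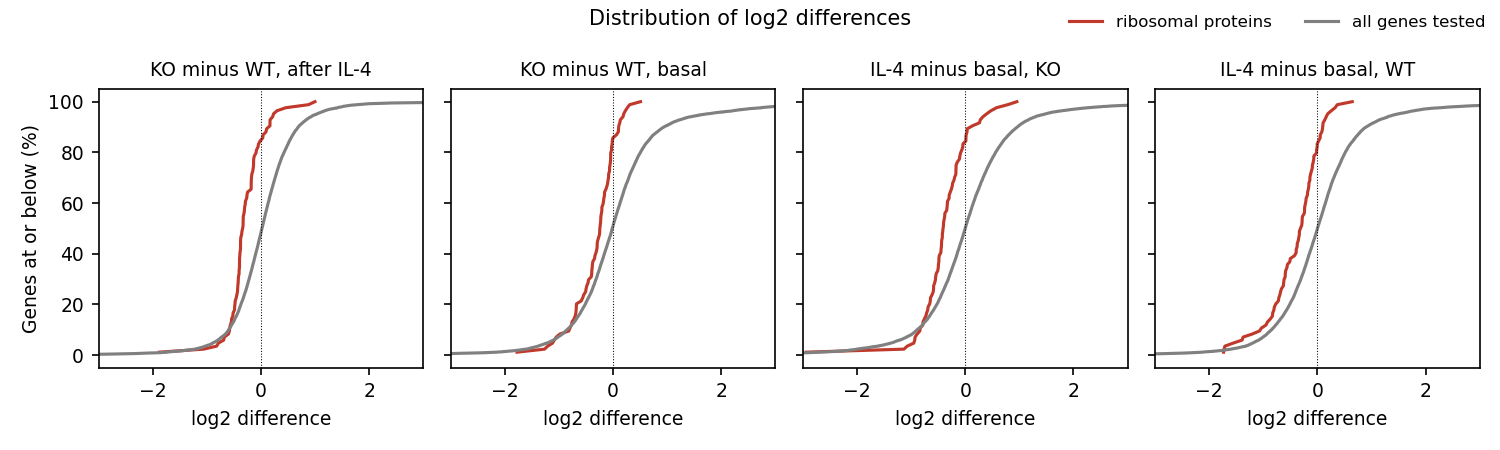
Cumulative share of genes in percent (vertical) at or below a log2 difference (horizontal), red for the 84 ribosomal protein genes tested and grey for all 11614 genes tested, 1 panel per comparison. The red curves lie left of the grey ones around the middle, with member medians of -0.33, -0.24, -0.41 and -0.30 in the order of the panels.

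In WT macrophages, 8 members were lower after IL-4 than after saline and none was higher. These were the small-subunit genes Rps3a1, Rps9, Rps14 and Rpsa and the large-subunit genes Rpl9, Rpl13a, Rpl22 and Rplp1. They were 9.52% of the members tested, against 6.06% of all genes called in either direction, 3.26% higher and 2.8% lower. The median over the members was -0.30, against 0.00 over all genes, and 70 of 84 had a log2 difference below 0, against 49.9% of all genes. At an unadjusted p under 0.05 there were 27 members, all lower after IL-4, which is 32.1% of them, against 21.3% of all genes. IL-4 and basal libraries did not overlap in 30 members lower after IL-4, against 19.5% of all genes, and in 2 higher, against 20.8%.

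Rps3a1 had 1183, 843 and 991 CPM in WT IL-4 libraries, against 1909.9 and 3371 CPM in WT basal libraries. Its 3 IL-4 libraries lay close together and all below both basal libraries, with log2 -1.39 ± 0.23 (edgeR adjusted p = 0.00251). Rpsa had 466, 318 and 457 CPM in WT IL-4 libraries, against 1097 and 1341 CPM in WT basal libraries, with log2 -1.56 ± 0.29 (edgeR adjusted p = 0.00651). Here the 2 basal libraries were close, and both stood well above every IL-4 library. Rps9, whose yeast counterpart bears on the accuracy of decoding, had 1838, 1516 and 2566 CPM in WT IL-4 libraries, against 3344 and 9707 CPM in WT basal libraries, and its difference of log2 -1.73 ± 0.42 (edgeR adjusted p = 0.0328) did not pass without basal replicate 2 (adjusted p = 0.403, the highest over all alternatives), the library with the highest level. Rps14 had 1527, 1071 and 1570.4 CPM in WT IL-4 libraries, against 2216 and 3629 CPM in WT basal libraries (log2 -1.07 ± 0.24, edgeR adjusted p = 0.015).

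Among the large-subunit genes, Rpl22 had 564, 489 and 511 CPM in WT IL-4 libraries, against 998 and 2414 CPM in WT basal libraries, with log2 -1.71 ± 0.35 (edgeR adjusted p = 0.0125). The IL-4 libraries agreed closely and the basal libraries differed widely. Its paralog Rpl22l1 had 194, 122 and 145 CPM in WT IL-4 libraries, against 141 and 156 CPM in WT basal libraries, where the groups overlapped (log2 0.05 ± 0.24, edgeR adjusted p = 0.936). Rpl9 had 69.8, 47.5 and 62.1 CPM in WT IL-4 libraries, against 106 and 169.9 CPM in WT basal libraries (log2 -1.21 ± 0.26, edgeR adjusted p = 0.0125). Rplp1, an acidic protein of the stalk that recruits elongation factors, had 520.0, 395 and 443 CPM in WT IL-4 libraries, against 651 and 954 CPM in WT basal libraries (log2 -0.83 ± 0.21, edgeR adjusted p = 0.029). Rpl13a, which also serves in the interferon-gamma-activated silencing of inflammatory mRNAs, had 1285, 816 and 1152 CPM in WT IL-4 libraries, against 1466 and 2725 CPM in WT basal libraries (log2 -0.95 ± 0.26, edgeR adjusted p = 0.0413). Without WT basal replicate 2, which leaves 1 basal library, 0 members were called, with 13 at an unadjusted p under 0.05 and a median of -0.16. Rpsa then had log2 -1.41 (adjusted p = 0.0601, within a range of 1.62e-08 to 0.0601 over all alternatives) and Rps3a1 had log2 -0.93 (adjusted p = 0.0513, within a range of 3.23e-07 to 0.0513), both close to the threshold. The other 6 had log2 differences from -0.94 for Rpl22 to -0.44 for Rpl13a, all still below 0, with adjusted p from 0.168 to 0.489, the highest that each reached under any alternative. Without WT basal replicate 1 there were 13 calls, and without WT IL-4 replicate 2 there were 2, Rps3a1 and Rpsa.

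In KO macrophages, 8 members were lower and 1 was higher after IL-4. The lower ones were the small-subunit genes Rps3, Rps14, Rps15, Rps21, Rps27rt and Rps28 and the large-subunit genes Rpl9 and Rpl27a, and the higher one was Rpl7l1. The 9 calls were 10.7% of the members tested, against 7.6% of all genes, of which 3.51% were called lower and 4.09% higher. The median over the members was -0.41, against 0.00 over all genes, and 70 of 84 were below 0, against 50.1% of all genes. At an unadjusted p under 0.05 there were 28 members, 27 of them lower, which is 33.3%, against 22.7% of all genes. IL-4 and basal libraries did not overlap in 49 members lower after IL-4, against 21.2% of all genes, and in 1 higher, against 18.4%.

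Rps14 had 912, 912 and 782 CPM in KO IL-4 libraries, against 2077 and 1576 CPM in KO basal libraries, with log2 -1.07 ± 0.24 (edgeR adjusted p = 0.0121). Rps27rt had 96.8, 98.2 and 91 CPM in KO IL-4 libraries, against 169 and 184 CPM in KO basal libraries, with log2 -0.89 ± 0.21 (edgeR adjusted p = 0.016). The IL-4 libraries lay close together in both genes, and the basal libraries did so in Rps27rt but less so in Rps14. Rps15, a protein of the small-subunit head that reaches the decoding site, had 716, 679 and 600.2 CPM in KO IL-4 libraries, against 1186 and 1196 CPM in KO basal libraries (log2 -0.84 ± 0.21, edgeR adjusted p = 0.0215). Rps21, whose promoter stretch holds 2 matches to CCGGAAG, had 381, 366 and 295 CPM in KO IL-4 libraries, against 612 and 581 CPM in KO basal libraries (log2 -0.78 ± 0.21, edgeR adjusted p = 0.0308). In each of these 4 genes every IL-4 library was below both basal libraries.

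Rps28, whose promoter stretch holds TCTCGCGA at the start site, had 40, 30.9 and 28.8 CPM in KO IL-4 libraries, against 58.9 and 67.5 CPM in KO basal libraries (log2 -0.93 ± 0.25, edgeR adjusted p = 0.0328). Its exons overlap Kank3 on the opposite strand. Rps3, a protein of the mRNA entry channel that also acts in DNA repair, had 699, 639.8 and 499 CPM in KO IL-4 libraries, against 1134 and 1046 CPM in KO basal libraries (log2 -0.83 ± 0.22, edgeR adjusted p = 0.0331). Rpl9 had 40.7, 36.2 and 44.3 CPM in KO IL-4 libraries, against 88.4 and 67.9 CPM in KO basal libraries (log2 -0.95 ± 0.26, edgeR adjusted p = 0.0367). Rpl7l1 was the one member called higher, with 166, 215 and 153 CPM in KO IL-4 libraries, against 105 and 78.5 CPM in KO basal libraries (log2 0.95 ± 0.26, edgeR adjusted p = 0.0348). Its canonical counterpart Rpl7 did not pass, with 612, 715 and 495 CPM in KO IL-4 libraries, against 760.4 and 832 CPM in KO basal libraries (log2 -0.39 ± 0.21, edgeR adjusted p = 0.28). Without KO basal replicate 1 there were 0 calls, without KO basal replicate 2 there was 1, Rps14, and without WT IL-4 replicate 3 there were 5.

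The B cell and mast cell markers also separated the KO groups. B cell markers summed to 347 to 463 CPM in KO IL-4 libraries, against 1214 to 1516 CPM in KO basal libraries, and all 10 were called lower after IL-4. Mast cell and basophil markers summed to 1.52 to 2.92 CPM in KO IL-4 libraries, against 156 to 259 CPM in KO basal libraries, with Mcpt4, Ms4a2 and Fcer1a at 0 after IL-4 and 6 of 7 called lower. In WT libraries the B cell sum ran the other way, with 372 to 437 CPM after IL-4, against 137 to 232 CPM under basal conditions, and 3 of 10 called higher. The mast cell and basophil sum was lower in WT too, with 2.68 to 3.99 CPM in WT IL-4 libraries, against 26.8 to 28.3 CPM in WT basal libraries, with Ms4a2 at 0 after IL-4, all 7 estimates below 0 and 3 called lower. Markers of small macrophages of the peritoneum and of monocytes and dendritic cells, among which Retnla is itself a target of IL-4, summed to 6101 to 8527 CPM in KO IL-4 libraries, against 533 to 692 CPM in KO basal libraries, and to 3605 to 4804 CPM in WT IL-4 libraries, against 381 to 500.2 CPM in WT basal libraries, with none of the 9 at 0 in any group. Retnla made up most of the sums after IL-4. Over the 8 tested the median log2 difference was 0.69 in KO, with 3 below 0, and 1.42 in WT, with 0 below 0. In each genotype 3 of the 8 were called higher after IL-4, namely Retnla, Ccr2 and Cd226. Ccr2 had log2 2.08 ± 0.30 in KO and 2.82 ± 0.31 in WT (edgeR adjusted p = 0.000542 and 0.000146). Napsa was called lower in KO (log2 -2.05 ± 0.29, edgeR adjusted p = 0.000374). The part of these cells in the lower levels after IL-4 was not tested.

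**Figure D4:**
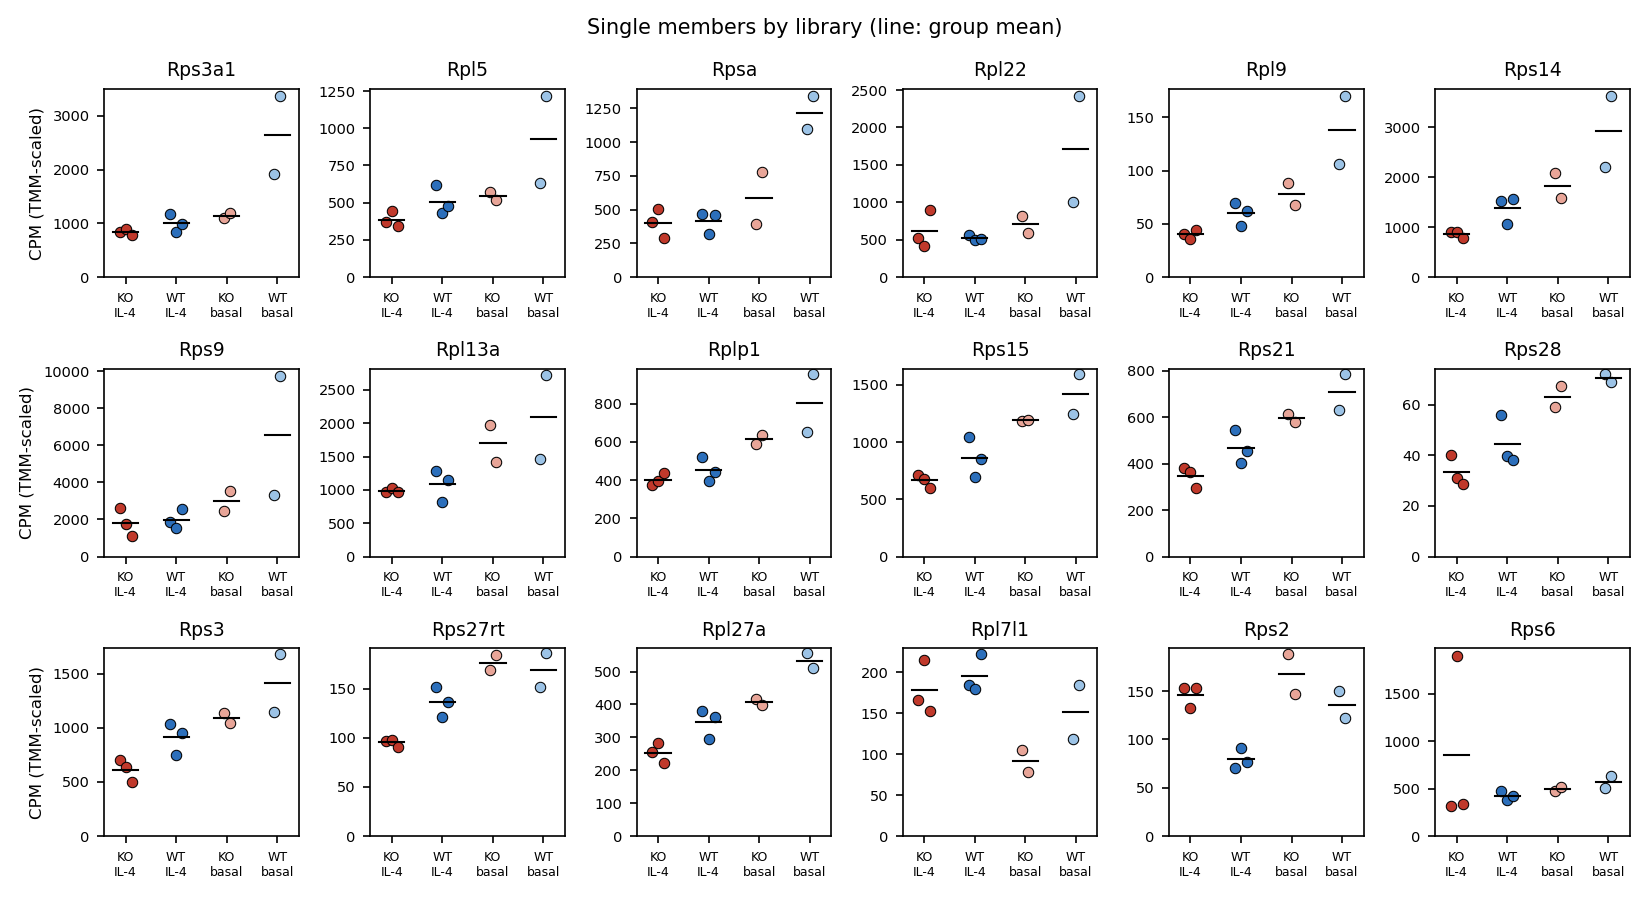
Level in CPM (vertical, from 0) of 18 ribosomal protein genes in each library, 1 panel per gene, with KO IL-4, WT IL-4, KO basal and WT basal from left to right and a line at the group mean. In most panels the IL-4 groups lie below the basal group of the same genotype, Rpl7l1 runs otherwise, the WT IL-4 libraries are lowest in Rps2, and 1 KO IL-4 library stands alone in Rps6.

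The 2 IL-4 comparisons share no library either. Of the 49 members whose KO IL-4 libraries lay below both KO basal libraries, 20 (40.8%) were also lower without overlap in WT, and they made up 66.7% of the 30 such members in WT. Over all genes tested the overlap was 31.4% of the genes apart in KO and 34.2% of those apart in WT. Members were apart more often to begin with, 49 of 84 in KO and 30 of 84 in WT, against 21.2% and 19.5% of all genes. Such rates by themselves raise an overlap, so the higher shares of the members do not show closer agreement between genotypes. Rps14 and Rpl9 were the members called lower in both genotypes, 2 of 8 in each. Their estimates were alike, with log2 -1.07 in KO and -1.07 in WT for Rps14, and -0.95 in KO and -1.21 in WT for Rpl9.

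Whether the IL-4 difference itself differed between genotypes was tested by the interaction, the log2 difference in KO minus that in WT. For this edgeR called 0 members, against 2.81% of all genes, with 4 members at an unadjusted p under 0.05, against 15.3% of all genes, and DESeq2 also called 0. The median over the members was -0.01, against 0.01 over all genes, and 45 of 84 lay below 0, against 49.4% of all genes. The smallest p belonged to Rpl22, with log2 -0.21 in KO and -1.71 in WT, a difference of 1.50 ± 0.51 (edgeR adjusted p = 0.159). Next was Rps3a1, with log2 -0.45 in KO and -1.39 in WT, a difference of 0.94 ± 0.33 (edgeR adjusted p = 0.168). Without WT basal replicate 1, 3 members were called. Rps3a1 passed in WT and not in KO, and the test of that difference did not pass.

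Several libraries held single members at levels unlike those of the other libraries. The departure of a member was taken as its log2 level relative to its own median over libraries, after subtracting the median of all members in that library, and values beyond 1 in either direction were counted. WT basal replicate 2 had 7 members above 1 and KO IL-4 replicate 3 had 5, while KO IL-4 replicate 1, WT IL-4 replicates 2 and 3 and KO basal replicate 1 had 0. Rpl39l, at under 3 CPM everywhere, was beyond 1 in 4 libraries.

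The largest departure was that of Rps6, the substrate of the S6 kinases. It had 314, 1904 and 339.9 CPM in KO IL-4 libraries, 475, 379 and 426 CPM in WT IL-4 libraries, 474 and 516 CPM in KO basal libraries and 509 and 635 CPM in WT basal libraries. KO IL-4 replicate 2 thus had 4.01 times the median of the other 9 libraries, which lay between 314 and 635 CPM. The KO IL-4 minus WT IL-4 estimate of log2 0.998 ± 0.582 (edgeR adjusted p = 0.475) turned to -0.39 without that library. The KO IL-4 minus KO basal estimate of 0.78 ± 0.66 (edgeR adjusted p = 0.531) likewise turned to -0.60. Rps6 has 11 near-identical pseudogenes.

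Rpl17, which lines the peptide tunnel, had 50.1, 24.3 and 48.5 CPM in KO IL-4 libraries, 53.7, 45.9 and 55.7 CPM in WT IL-4 libraries, 40.2 and 60.3 CPM in KO basal libraries and 41.5 and 303 CPM in WT basal libraries. WT basal replicate 2 had 6.25 times the median of the other 9. Its estimates of log2 -1.78 ± 0.67 in KO minus WT under basal conditions (edgeR adjusted p = 0.186) and -1.74 ± 0.59 in WT IL-4 minus basal (edgeR adjusted p = 0.111) became 0.27 and 0.31 without that library. The same library had 9707 CPM of Rps9, against 1111 to 3556 CPM in the other 9, and 6092 CPM of Rpl26, against 1016 to 3257 CPM. It had 2414 CPM of Rpl22, against 414 to 998 CPM, and 2602 CPM of the stalk gene Rplp2, against 671 to 1231 CPM. Rps3a1 and Rpsa were the other members above 1 there, and both are among the genes called lower after IL-4 in WT.

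KO IL-4 replicate 3 had 3037 CPM of Rpl6, a large-subunit protein, against 1550.4 to 2029 CPM in the other 9. Rpl4, a protein of the tunnel wall, had 1965 CPM there, against 813 to 1815 CPM elsewhere. Rps23, which takes part in decoding, had 1919 CPM there, within the 749 to 2130 CPM of the other 9 and 1.66 times their median, in a library where the members had a median of -0.49 on the log2 scale relative to their own medians. Rpl22 and Rps19bp1 were the remaining members above 1.

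**Figure D5:**
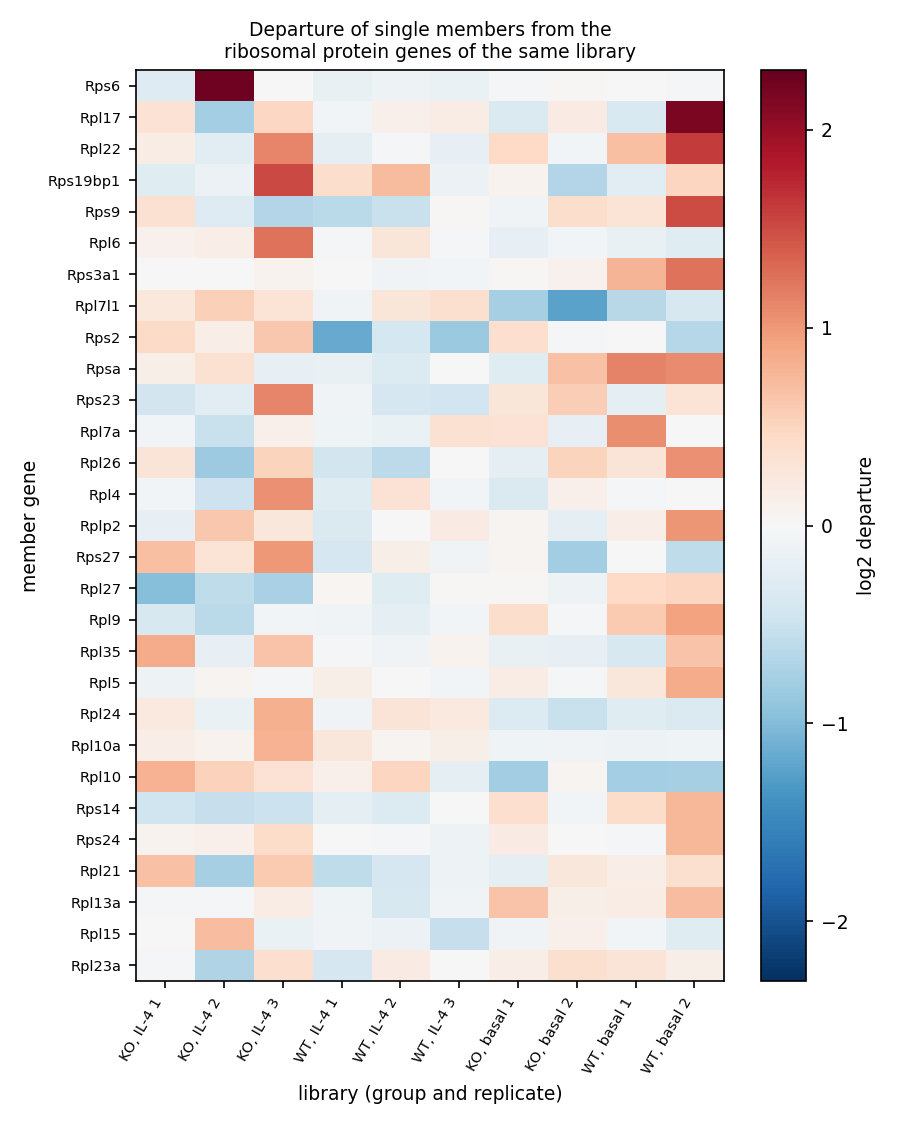
Departure in log2 (colour) of the 29 members that depart most in any library and are not Rpl39l, rows by member and columns by library, relative to the median of the member over libraries and of all members in the library. Single dark cells mark Rps6 in KO IL-4 replicate 2 and Rpl17 in WT basal replicate 2, and WT basal replicate 2 has the most red cells.

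Members named for their role show how the groups compare outside the calls. In the stalk, the anchor protein Rplp0 had 316, 429.7 and 296 CPM in KO IL-4 libraries, 368, 316 and 334 CPM in WT IL-4 libraries, 279 and 354 CPM in KO basal libraries and 328 and 413 CPM in WT basal libraries. Its groups overlapped in all 4 comparisons, unlike those of Rplp1. Rplp2 had log2 -1.03 ± 0.31 in WT IL-4 minus basal (edgeR adjusted p = 0.0695), with all IL-4 libraries lower.

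Rpl5 and Rpl11 travel with 5S RNA and restrain MDM2 when free. Rpl5 had 369, 443 and 345 CPM in KO IL-4 libraries, 616, 432 and 475 CPM in WT IL-4 libraries, 572 and 516 CPM in KO basal libraries and 635 and 1220.4 CPM in WT basal libraries. It was lower after IL-4 without overlap in KO (log2 -0.50 ± 0.26, edgeR adjusted p = 0.263), and likewise in WT (log2 -0.87 ± 0.25, edgeR adjusted p = 0.0554). Neither passed. Rpl11 had 73.4, 82.1 and 62.7 CPM in KO IL-4 libraries, against 96.3 and 99 CPM in KO basal libraries (log2 -0.42 ± 0.24, edgeR adjusted p = 0.299), and in WT the groups overlapped. Rps27a, made as a fusion with ubiquitin, had log2 0.01 ± 0.25 in KO and -0.02 ± 0.25 in WT for IL-4 minus basal, and Rpl41, the smallest ribosomal protein, had -0.23 ± 0.24 and -0.37 ± 0.24 in the same order, none of which passed in edgeR (adjusted p from 0.397 to 0.987).

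A few further members lay far from the member median. Rpl37, a zinc-binding protein of the large subunit, had 14.1, 13.9 and 11.7 CPM in KO IL-4 libraries, 31.8, 13.4 and 18.9 CPM in WT IL-4 libraries, 27.2 and 23.3 CPM in KO basal libraries and 29.6 and 22.6 CPM in WT basal libraries. KO IL-4 libraries lay below KO basal libraries and overlapped WT IL-4 libraries, and neither log2 difference passed (-0.93 ± 0.32 and -0.69 ± 0.29, edgeR adjusted p = 0.0947 and 0.299). The X-linked Rps4x had 672, 465 and 576 CPM in WT IL-4 libraries, against 483 and 473 CPM in WT basal libraries, with overlap (log2 0.26 ± 0.21, edgeR adjusted p = 0.518). Rpl10, which joins the large subunit last, had 3.57 to 8.73 CPM over the 10 libraries and was called in no comparison. It has 8 near-identical pseudogenes, so this low level is uncertain.

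The subunits are given side by side. For KO minus WT after IL-4 the median log2 difference was -0.37 over 33 small-subunit genes and -0.33 over 50 large-subunit genes, and under basal conditions -0.23 and -0.26. For IL-4 minus basal it was -0.45 over the small and -0.36 over the large subunit in KO, and -0.33 and -0.28 in WT. The 30 members tested that host small nucleolar RNAs and the other 54 had medians of -0.35 and -0.33 after IL-4 for KO minus WT, and of -0.43 and -0.40 in KO for IL-4 minus basal.

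Ribosomal proteins outside the symbol rule were not called in any comparison. Rack1, a scaffold on the small subunit, had 483, 537 and 435 CPM in KO IL-4 libraries, 695, 527 and 607 CPM in WT IL-4 libraries, 552 and 609 CPM in KO basal libraries and 579 and 661 CPM in WT basal libraries. Its KO IL-4 minus WT IL-4 log2 difference was -0.33 ± 0.18 (edgeR adjusted p = 0.418). Fau, made as a fusion with a ubiquitin-type domain, had -0.27 ± 0.35 in that comparison (edgeR adjusted p = 0.779).

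Related lists gave these counts. The 76 mitochondrial ribosomal proteins tested had medians of -0.33 and -0.41 for KO minus WT after IL-4 and under basal conditions with 0 calls in either, and of -0.20 in KO and -0.31 in WT for IL-4 minus basal, with 1 and 4 called lower. These calls were 1.32% of them in KO, against 7.6% of all genes called in either direction, and 5.26% in WT, against 6.06%. Mrpl33, a large-subunit protein of mitochondria, was called lower after IL-4 in both genotypes (log2 -0.93 ± 0.22 in KO and -0.84 ± 0.22 in WT, edgeR adjusted p = 0.0164 and 0.0322). Of 26 elongation factors and other mRNAs of the pyrimidine-tract class, 2 were lower and 1 higher after IL-4 in KO (11.5%, against 7.6% of all genes) and 4 lower and 1 higher in WT (19.2%, against 6.06%). Their medians for IL-4 minus basal were -0.18 in KO (18 of 26 below 0) and only -0.05 in WT (15 of 26). For KO minus WT the medians of this list were -0.25 after IL-4 (20 of 26) and -0.18 under basal conditions (18 of 26). Between genotypes 0 were called after IL-4 and 1 under basal conditions (3.85%, against 4.14%), which was Eef1g, a subunit of the elongation exchange factor, with 187 and 208 CPM in KO basal libraries, against 417 and 319 CPM in WT basal libraries (log2 -0.90 ± 0.24, edgeR adjusted p = 0.0463). The interaction had 1 call (3.85%, against 2.81% of all genes), Npm1, which is also in the next list. Eef1b2, an exchange factor of elongation, and Tpt1, a growth-related protein, were lower in both genotypes, with log2 -0.73 ± 0.20 and -0.72 ± 0.20 in KO and -0.72 ± 0.20 and -0.80 ± 0.20 in WT (edgeR adjusted p = 0.0345, 0.0345, 0.0415 and 0.0236).

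Of 60 ribosome biogenesis factors tested, 1 was lower in KO after IL-4, 1 lower in KO under basal conditions, 2 lower after IL-4 in WT, and 5 lower and 1 higher after IL-4 in KO. That was 1.67% of them in each genotype comparison, against 0.827% of all genes after IL-4 and 4.14% under basal conditions, 3.33% in WT, against 6.06%, and 10% in KO, against 7.6%. For KO minus WT their medians were -0.30 after IL-4 (45 of 60 below 0) and -0.45 under basal conditions (46 of 60). The member medians there were -0.33 and -0.24. For IL-4 minus basal the factors had medians of 0.02 in KO and -0.14 in WT. The interaction had 2 calls among them (3.33%, against 2.81% of all genes). Nop16, a nucleolar factor of the large subunit, had 6.4, 10.4 and 8.25 CPM in KO IL-4 libraries, against 19.9, 16 and 25.2 CPM in WT IL-4 libraries (log2 -1.27 ± 0.26, edgeR adjusted p = 0.033). Rrp1, a factor of rRNA processing, had 122 and 110.3 CPM in KO basal libraries, against 227 and 292 CPM in WT basal libraries (log2 -1.16 ± 0.26, edgeR adjusted p = 0.018). Npm1, the nucleolar chaperone nucleophosmin, had 1137, 767 and 664 CPM in KO IL-4 libraries, against 220.4 and 381 CPM in KO basal libraries (log2 1.51 ± 0.33, edgeR adjusted p = 0.0129), and its interaction of 2.05 ± 0.45 also passed (edgeR adjusted p = 0.0237). The interaction of Bop1, a factor of large-subunit maturation, passed with the opposite sign, at log2 -1.76 ± 0.45 (edgeR adjusted p = 0.0449), with 7.82, 8.83 and 6.33 CPM in KO IL-4 libraries, 18.3, 10.4 and 14.9 CPM in WT IL-4 libraries, 17.9 and 15.1 CPM in KO basal libraries and 8.59 and 9.85 CPM in WT basal libraries. Initiation factors had 1 call in KO minus WT under basal conditions (Eif1ax, lower), 1 in each IL-4 comparison (Eif3c higher in KO, Eif3d lower in WT) and 0 after IL-4 between genotypes. Each call was 3.85% of the 26 tested, against 4.14%, 7.6% and 6.06% of all genes in the order given. For KO minus WT the initiation factors had medians of -0.20 after IL-4 (19 of 26 below 0) and -0.24 under basal conditions (21 of 26). For IL-4 minus basal the medians were 0.10 in KO and 0.14 in WT. RNA polymerase I and its factors had 1 call, Polr1a, higher after IL-4 in KO (7.14% of 14, against 7.6% of all genes). Genes of growth control had 2, both Pdcd4, an inhibitor of translation that was lower in KO under basal conditions and lower after IL-4 in WT (5% of 20 in each, against 4.14% and 6.06% of all genes). Genes of ribosome rescue had 1, Zfp598, lower after IL-4 in KO (6.67% of 15, against 7.6%).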

How the data were processed

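The deposited values were whole-number read counts per Ensembl gene and library. Alignment with STAR, counting with HTSeq and the mm10 build are named per the submitters' processing notes, and versions, strand setting and annotation are not given in the sources used here. Every per-sample column was used. Identifiers were matched to GENCODE M21, and 343 found no match. In edgeR 4.0.16 (R 4.3.3), TMM scaling and the filterByExpr filter (count of at least 10, total of at least 15) left 11614 genes. They were fitted with a robust quasi-likelihood model of 4 group means (6 residual degrees of freedom, common biological variation 28.4%). Tests were two-sided, with Benjamini-Hochberg adjustment over all genes tested and a threshold of 0.05, and the procedure was checked on simulated counts. A log2 difference is KO minus WT, or IL-4 minus basal, and its ± is a standard error.

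The members, lists and tests were chosen with earlier results of these data known. Genes named were, in each comparison, up to 6 passing members of smallest p in each direction, or the 2 of smallest p where none passed, members named for their role or paralog, the 3 members of at least 10 CPM farthest above and below the member median, and passing genes of related lists. Others were named after their values were seen: the remaining called member (Rpl27a), members shared between comparisons and members beyond the limit in a single library. Pseudogenes were matched with BLAST 2.17.0. Alternatives were library totals, DESeq2 1.42.0 scaling and test, TMM without the members, no filter, a replicate block, the compared groups alone and each library left out. Figures and tables were made in Python 3.11.15. A lone library of a group, in fits with 1 library left out, was taken to vary as the rest do. Values of some genes are not reported here.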

Additional observations from a re-analysis of the deposited data

How the results depend on the processing

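The member medians of the 4 group comparisons stayed below 0 and below the median of all genes under every alternative run, while counts of calls moved. For KO minus WT after IL-4 (0 calls), DESeq2 called 1 and the fit with no filter 4. For KO minus WT under basal conditions (2 calls), library totals gave 1, DESeq2 4, no filter 9 and the compared groups alone 1. For IL-4 minus basal in KO (9), library totals gave 15, no filter 15 and the compared groups alone 2. For IL-4 minus basal in WT (8), DESeq2 gave 14 and no filter 18. The interaction (0) had 4 calls with no filter, and its member median became -0.19 with library totals, where the median of all genes was -0.17. Library totals also moved the median of all genes to 0.13 for KO minus WT under basal conditions and to -0.10 for IL-4 minus basal in KO. Without the 100 highest other genes in the total, the share of reads on members averaged 6.07% in KO IL-4, 7.37% in WT IL-4, 8.26% in KO basal and 10.4% in WT basal libraries. The cause of these shifts was not tested.

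With 1 library left out, calls ranged from 0 to 1 and medians from -0.44 to -0.23 for KO minus WT after IL-4, from 0 to 7 and -0.35 to -0.08 under basal conditions, from 0 to 11 and -0.50 to -0.33 for IL-4 minus basal in KO, from 0 to 13 and -0.45 to -0.16 in WT, and from 0 to 3 and -0.25 to 0.11 for the interaction. Of the 19 called values, 0 were kept in every such fit and 7 in every other setting. Rps6 turned without KO IL-4 replicate 2, with ranges over all such fits of -0.39 to 1.39 (KO minus WT after IL-4), -0.60 to 1.18 (IL-4 minus basal in KO) and -0.18 to 1.59 (interaction). Rpl17 turned without WT basal replicate 2, with ranges of -2.58 to 0.27 (KO minus WT, basal), -2.54 to 0.31 (IL-4 minus basal in WT) and -0.62 to 2.23 (interaction).

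The labels do not say whether replicate numbers pair the samples. Over 13 same-numbered pairs, deviations from the group means correlated between -0.11 and 0.06. Pairs of unlike number were not compared, so these values cannot exclude a pairing. With the replicate block, 1 member was called for IL-4 minus basal in KO and 5 in WT, and the other counts were as without it. At this depth Rpl3l and Rpl10l had too few reads to be tested.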

Other observations

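The 17 rows with "-ps" symbols that the rule left out, 5 of them annotated as protein-coding, together took 0.0055% to 0.0096% of a library. Rpl10-ps3, a copy of the gene of the late-joining subunit protein Rpl10, had 86 to 218 counts per library.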
